A study of Homo sapiens with 6 samples.

Results

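The 10 genes described here belong to the fibroblast growth factor (FGF) and extracellular signal-regulated kinase (ERK) pathway: the ligands FGF2 and FGF4, the receptors FGFR1, FGFR2, FGFR3 and FGFR4, the feedback inhibitors DUSP6, SPRY2 and SPRY4, and the transcription factor ETV4. They were named by pathway, and their positions were read from the GENCODE annotation of GRCh37. They are 10 of 19812 protein-coding genes with a canonical transcript, and all 10 could be measured. DNA methylation was measured by whole-genome bisulfite sequencing in the established human embryonic stem cell line H9, with 3 libraries of Conventional and 3 of Reset cells. Conventional cells were kept in FGF/KSR, a medium with 10 ng/ml bFGF (the FGF2 protein) and 20% KSR, a serum replacement. Reset cells came from cells transfected with NANOG and KLF2 transgenes inducible by doxycycline, and were kept in t2iL+Gö once doxycycline had been withdrawn. That medium is N2B27 with LIF, 1 µM of the MEK inhibitor PD0325901, 1 µM of the GSK3 inhibitor CHIR99021 and 5 µM of the protein kinase C inhibitor Gö6983. Both kinds of cells grew on mouse embryonic fibroblast feeders at 5% oxygen. The groups therefore differ in transgene history, medium and inhibitors together, and these cannot be told apart. All libraries come from 1 line, and the labels do not say whether the 3 Reset libraries came from separate resettings, so the p-values measure only the spread between these libraries. In bulk DNA a level that differs in every cell and one that differs in a share of the cells cannot be told apart.

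FGF ligands bind receptor tyrosine kinases, which act through RAS, RAF and MEK to activate ERK. Active ERK induces ETV4 and, in a negative loop, DUSP6, a phosphatase that dephosphorylates ERK, and the Sprouty proteins SPRY2 and SPRY4, which dampen receptor signalling. Conventional human pluripotent cells depend on added FGF, while the inhibitor in the Reset medium blocks MEK, the kinase just upstream of ERK. The 10 genes thus encode parts or responses of a pathway that the Conventional medium stimulates and the Reset medium inhibits. Methylation of cytosine at CpG sites is usually absent from CpG-rich promoters and dense over gene bodies. Transcript levels of these genes were not analysed here, and a methylation level is not a measure of expression.

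A methylation level is the share of methylated calls among all calls at the CpGs of a window, in percent, computed in each library. The promoter window began 1000 bp before the canonical transcription start and ended 500 bp after it, the body was the rest of the transcript, and 10 intervals of 1 kb were laid upstream of each start. Intervals of 1 kb were also laid along the body. Interval -1 is the one next to the start on the upstream side, and body interval 1 begins where the promoter window ends. A window was tested when every library had at least 10 calls, and it was called lower or higher in Reset cells at an adjusted p under 0.05 over all windows of its kind. The Conventional libraries held 92023996 to 98004161 calls and the Reset libraries 70329213 to 80199615, which is 3.28 to 3.49 and 2.51 to 2.86 calls per CpG. Over the whole genome 84.4% ± 0.161 of calls were methylated in Conventional and 30.01% ± 0.432 in Reset cells (SD, n = 3 libraries each). At this depth single CpGs cannot be compared, while the members' promoters held 118 to 387 calls per library. The promoters of the pluripotency factors NANOG and SOX2 had mean levels of 6.52% and 1.34% in Conventional and 3.83% and 2.46% in Reset cells, with no call. That of POU5F1 fell from 14.8% ± 5.94 to 2.68% ± 2.39 (adjusted p = 0.00537).

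Of the 10 promoters, 3 were lower in Reset cells, 1 was higher and 6 had no call. Among all 19293 promoters tested, 67.4% were lower and 3.98% higher. All 10 member promoters stood under 25% in Conventional cells, and among all 12153 promoters under that level, a stratum chosen after the values were seen, 50.7% were lower and 6.12% higher. The median difference (Reset minus Conventional) was -2.43 percentage points over the members, -9.59 over all promoters and -3.28 over those under 25%. Without Conventional replicate 3 the count of lower promoters was 5, with FGFR2 and FGFR3 added, and without each of the other libraries it was 3. The lower promoters belong to FGF4, FGFR1 and FGFR4, and the higher promoter to DUSP6.

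**Figure D1:**
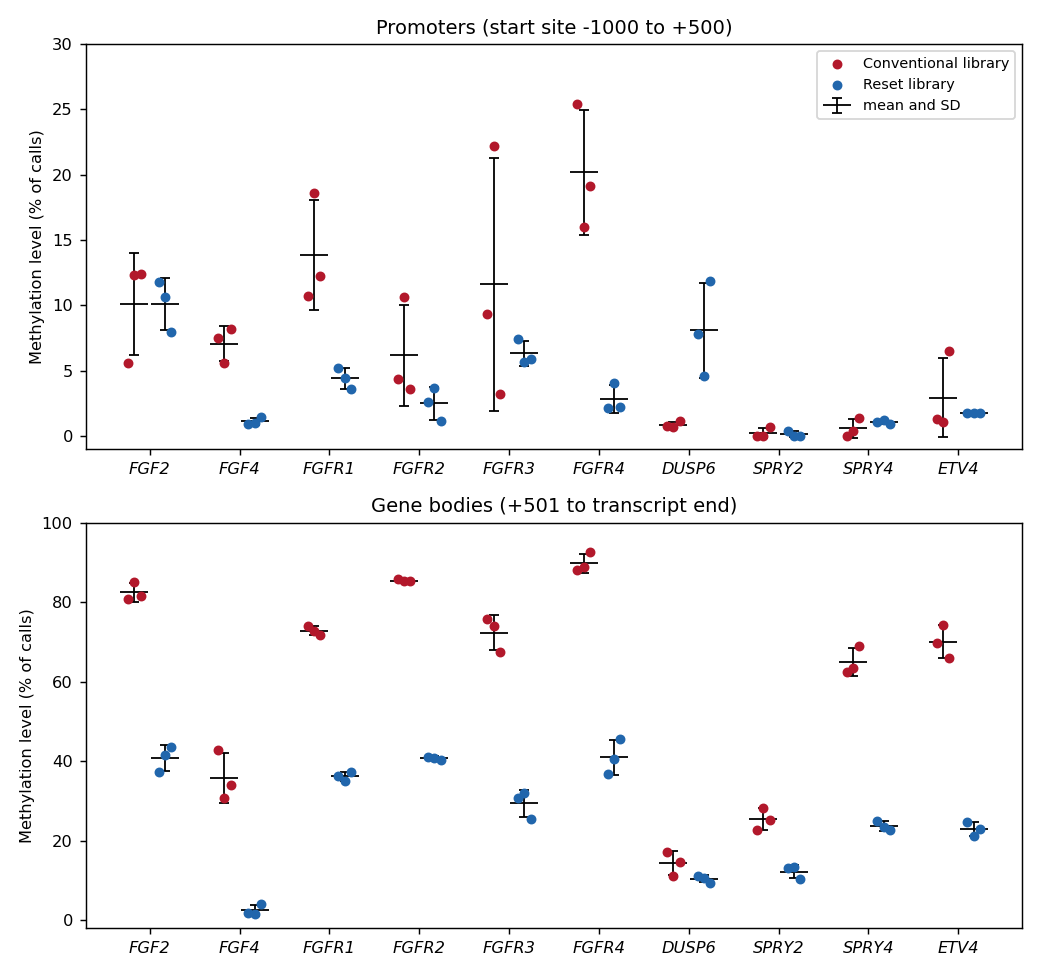
Methylation level (% of calls, y axis) of each member gene (x axis) in the 3 Conventional (red) and 3 Reset (blue) libraries, with group mean and SD in black, for promoters (top) and bodies (bottom). The y scales differ between the panels. DUSP6 is the member whose promoter points are all higher in Reset cells, and in the bodies of 9 members the groups do not overlap.

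Several stretches of 300 bases show where these levels lie. They are read from GRCh37 in the direction of the gene, 5′ to 3′, and every CpG, the dinucleotide whose methylation was measured, is in capitals. FGFR4, whose promoter had the largest fall, is shown by the middle of the promoter (chr5:176513517-176513816, + strand, 15 CpGs) and by its outer part (chr5:176513166-176513465, + strand, farther from the start, 5 CpGs). The second stretch was added after the values were seen, because the fall lay there. DUSP6 (chr12:89746379-89746678, - strand, 19 CpGs) had the rise, and SPRY2 (chr13:80915362-80915661, - strand, 37 CpGs) stands for a promoter with no call. All 4 stretches lie upstream of the canonical transcript, and that of DUSP6 overlaps an annotated lncRNA gene, ENSG00000274021.
FGFR4 middle of the promoter: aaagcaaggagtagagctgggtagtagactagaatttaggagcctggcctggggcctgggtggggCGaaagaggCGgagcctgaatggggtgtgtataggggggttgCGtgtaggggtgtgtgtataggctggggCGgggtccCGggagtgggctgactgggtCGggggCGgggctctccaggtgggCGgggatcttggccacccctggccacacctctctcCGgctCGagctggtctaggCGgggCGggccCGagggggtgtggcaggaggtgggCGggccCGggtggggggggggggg
FGFR4 outer promoter: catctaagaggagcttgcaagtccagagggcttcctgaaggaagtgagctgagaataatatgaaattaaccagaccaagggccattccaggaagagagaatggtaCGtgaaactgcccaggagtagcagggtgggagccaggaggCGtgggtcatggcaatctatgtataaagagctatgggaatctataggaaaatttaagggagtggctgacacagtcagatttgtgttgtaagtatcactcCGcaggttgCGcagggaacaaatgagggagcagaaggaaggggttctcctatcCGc
DUSP6 middle of the promoter: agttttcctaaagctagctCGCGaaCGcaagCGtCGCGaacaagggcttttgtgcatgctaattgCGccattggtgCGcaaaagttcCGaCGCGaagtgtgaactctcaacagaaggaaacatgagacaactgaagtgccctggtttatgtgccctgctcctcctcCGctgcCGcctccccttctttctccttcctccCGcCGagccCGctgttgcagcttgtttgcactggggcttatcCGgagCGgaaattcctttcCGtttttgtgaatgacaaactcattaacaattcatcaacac
SPRY2 middle of the promoter: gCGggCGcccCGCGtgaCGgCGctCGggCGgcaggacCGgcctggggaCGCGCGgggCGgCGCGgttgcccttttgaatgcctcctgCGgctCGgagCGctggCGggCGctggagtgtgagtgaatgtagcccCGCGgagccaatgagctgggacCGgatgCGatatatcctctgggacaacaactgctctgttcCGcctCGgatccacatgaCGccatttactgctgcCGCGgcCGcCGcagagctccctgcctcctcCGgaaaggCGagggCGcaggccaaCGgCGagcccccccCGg

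The printed middle of the FGFR4 promoter held no methylated call in any library, among 40 Conventional and 44 Reset calls, which allows a level of up to 7.5% and 6.82% (3 calls of the total, for counting error only). Its outer stretch stood at 66.7, 81 and 68.2% in the Conventional and 0, 0 and 6.67% in the Reset libraries, on 9 to 24 calls per library. The DUSP6 stretch had no methylated call among 138 Conventional calls, which allows up to 2.17%, and levels of 6.82, 6.45 and 13.2% in the Reset libraries. In the CpG-dense SPRY2 stretch none of 172 Conventional and 201 Reset calls was methylated, which allows up to 1.74% and 1.49%. Calls at neighbouring CpGs can come from the same read and are then not independent, so these limits are too low.

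Among the ligands, FGF4, which signals in an autocrine way in early embryonic cells, was lower in Reset cells, and FGF2, the ligand supplied in the Conventional medium, had no call. The FGF4 promoter (chr11:69589609-69591109, spanning the start, a 5′ UTR and coding sequence) stood at 7.47, 5.56 and 8.2% in the Conventional and 0.913, 1.02 and 1.45% in the Reset libraries. It fell by 5.95 percentage points (adjusted p = 0.00029), and the groups did not overlap. In the narrower window of 500 bp on each side the FGF4 level fell by 3.46 points (adjusted p = 0.00563), and in one that begins 2000 bp upstream it fell by 14.7 points. In 250-bp bins the fall lay upstream, since the bin from 500 to 251 bp upstream stood at 28.6, 22.7 and 15.2% in the Conventional and 0, 0 and 7.89% in the Reset libraries and the bin that starts at the start site at a mean of 0.37% and 0.267%. The FGF2 promoter (chr4:123746986-123748486, which also holds the start of the miRNA gene AC021205.1) stood at 5.59, 12.3 and 12.4% in the Conventional and 11.8, 10.7 and 7.93% in the Reset libraries. The means were 10.1% ± 3.92 and 10.1% ± 2.0, and the groups overlapped (adjusted p = 0.649). The FGF2 difference depended on the window without reaching a call, at 2.15 points for 500 bp on each side, where the groups did not overlap (adjusted p = 0.0739), and -8.73 points from 2000 bp upstream (adjusted p = 0.148).

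Within the FGF2 promoter the bins differed in opposite directions. The outermost bin, 1000 to 751 bp upstream, stood at 37.5, 53.8 and 81.8% in the Conventional and 27.3, 20 and 20% in the Reset libraries, on 2 CpGs and as few as 5 calls. The next bin stood at 17.5, 34 and 23.7% in the Conventional and 43.6, 50 and 31% in the Reset libraries, where the groups overlapped. Nearer the start, 500 to 251 bp upstream, the Conventional libraries had no methylated call and the Reset libraries 10, 15.2 and 14.3%.

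Of the receptors, the tyrosine kinases that bind FGF, FGFR1 and FGFR4 had lower promoters and FGFR2 and FGFR3 no call. The FGFR4 promoter (chr5:176512916-176514416) stood at 25.4, 16 and 19.1% in the Conventional and 2.18, 4.1 and 2.22% in the Reset libraries. It fell by 17.4 percentage points, the most of the 10 (adjusted p = 2.26e-05). In a window of 500 bp on each side it fell by 8.49 points (adjusted p = 0.00752), and in one that begins 2000 bp upstream by 37.7 points. Over the promoter window the groups did not overlap. Its middle and the start itself were near 0% in both groups, while the flanks on both sides were lower, and from 750 to 1000 bp downstream, just inside the body, the level was 62.5, 57.1 and 58.8% in the Conventional and 0, 0 and 0% in the Reset libraries, on at least 7 calls per library. The stretch with little methylation around the FGFR4 start was thus wider in Reset cells. The bins were not tested singly.

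The FGFR1 promoter, on chromosome 8, stood at 10.7, 18.6 and 12.2% in the Conventional and 5.2, 4.47 and 3.58% in the Reset libraries. It fell by 9.44 percentage points without overlap (adjusted p = 0.000578). Here too the fall lay away from the start, and in the narrower window of 500 bp on each side the difference was -3.95 points with no call (adjusted p = 0.127), while from 2000 bp upstream FGFR1 fell by 22 points. The FGFR2 promoter (chr10:123357458-123358958) stood at 4.33, 10.6 and 3.61% in the Conventional and 2.59, 3.72 and 1.19% in the Reset libraries (adjusted p = 0.0774). Conventional replicate 2 was the highest, and the remaining libraries overlapped. Without Conventional replicate 3 the FGFR2 promoter fell by 4.97 points (adjusted p = 0.0453), while without Conventional replicate 2 the difference was -1.48 points (adjusted p = 0.305).

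The FGFR3 promoter (chr4:1794020-1795520) stood at 9.36, 22.2 and 3.24% in the Conventional and 7.44, 5.68 and 5.88% in the Reset libraries (adjusted p = 0.171). Conventional replicate 2 stood apart, and its excess lay in the 250 bp after the start, where it had 54.2% against 0 and 1.03% in the other Conventional libraries. Without this library the difference was 0.036 percentage points, and without Conventional replicate 3 it fell by 9.46 points (adjusted p = 0.0114). The call at FGFR3 thus depended on which library was left out.

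The feedback inhibitors, which ERK activity normally induces, had the least methylated promoters in Conventional cells. DUSP6 (chr12:89745778-89747278) stood at 0.76, 0.725 and 1.12% in the Conventional and 7.84, 4.56 and 11.8% in the Reset libraries. Every Reset library was above every Conventional library, and the rise was 7.21 percentage points (adjusted p = 0.00032). In the main test it extended over more than the promoter, since interval -2 and body intervals 1 and 2 were called higher too. Those calls were lost with limma on the percent level, as given below. Interval -1, which lies within the promoter window, stood at 1.49, 0 and 0.68% in the Conventional and 8.8, 4.49 and 15% in the Reset libraries (adjusted p = 1.05e-05), and interval -2, which holds the start of the gene ENSG00000286608, at 1.83, 1.85 and 0.515% in the Conventional and 11, 5.42 and 4.24% in the Reset libraries (adjusted p = 0.00039). Reset replicate 3 was the highest in interval -1 and Reset replicate 1 in interval -2.

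Body interval 1 of DUSP6 stood at 0.311, 1.04 and 0.337% in the Conventional and 7.26, 6.57 and 8.77% in the Reset libraries (adjusted p = 3.37e-11). Body interval 2, an intron and a coding exon, stood at 0.794, 0.73 and 0% in the Conventional and 10.9, 13.3 and 4.0% in the Reset libraries (adjusted p = 6.23e-07). With limma on the percent level, no call was left for intervals -1 and -2 and body intervals 1 and 2. The adjusted p was 0.0538 for interval -1 and 0.0804 for body interval 2. The DUSP6 promoter kept its call there (adjusted p = 0.0233). The levels reached in Reset cells were low, and in 250-bp bins the highest mean between 1500 bp upstream and 2750 bp downstream of the start was 17.9%, in the bin from 1250 to 1001 bp upstream. That bin stood at 0, 0 and 1.82% in the Conventional and 29.3, 4.35 and 20% in the Reset libraries, so Reset replicate 2 was the lowest of the 3. Beyond this stretch the direction turned, and body intervals 3, 4 and 5 were lower, interval 4 at 97.6, 93.1 and 80% in the Conventional and 28.6, 20 and 12.5% in the Reset libraries.

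The SPRY2 promoter (chr13:80914761-80916261) stood at 0, 0 and 0.676% in the Conventional and 0.391, 0 and 0% in the Reset libraries (adjusted p = 0.868), and SPRY4 (chr5:141704086-141705586, which holds the start of the lncRNA gene SPRY4-AS1) at 0, 0.389 and 1.41% in the Conventional and 1.1, 1.26 and 0.922% in the Reset libraries (adjusted p = 0.366). Neither had a call, and no library reached 2% in either. At the 5′-most annotated start of SPRY4, 1434 bp upstream of the canonical one, the difference was 4.96 points without overlap and without a call (adjusted p = 0.0586). At the canonical starts, levels this low in Conventional cells leave little room for a fall. The ETV4 promoter (chr17:41623208-41624708, also within the coding gene DHX8), in a gene for an ETS family factor induced by ERK, stood at 1.33, 1.05 and 6.47% in the Conventional and 1.78, 1.78 and 1.77% in the Reset libraries (adjusted p = 0.604). Conventional replicate 3 was the highest and the others lay close together. At the 5′-most annotated start of ETV4, 33280 bp upstream of the canonical one and also within DHX8, the promoter window fell by 39.8 percentage points (adjusted p = 0.00021).

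**Figure D2:**
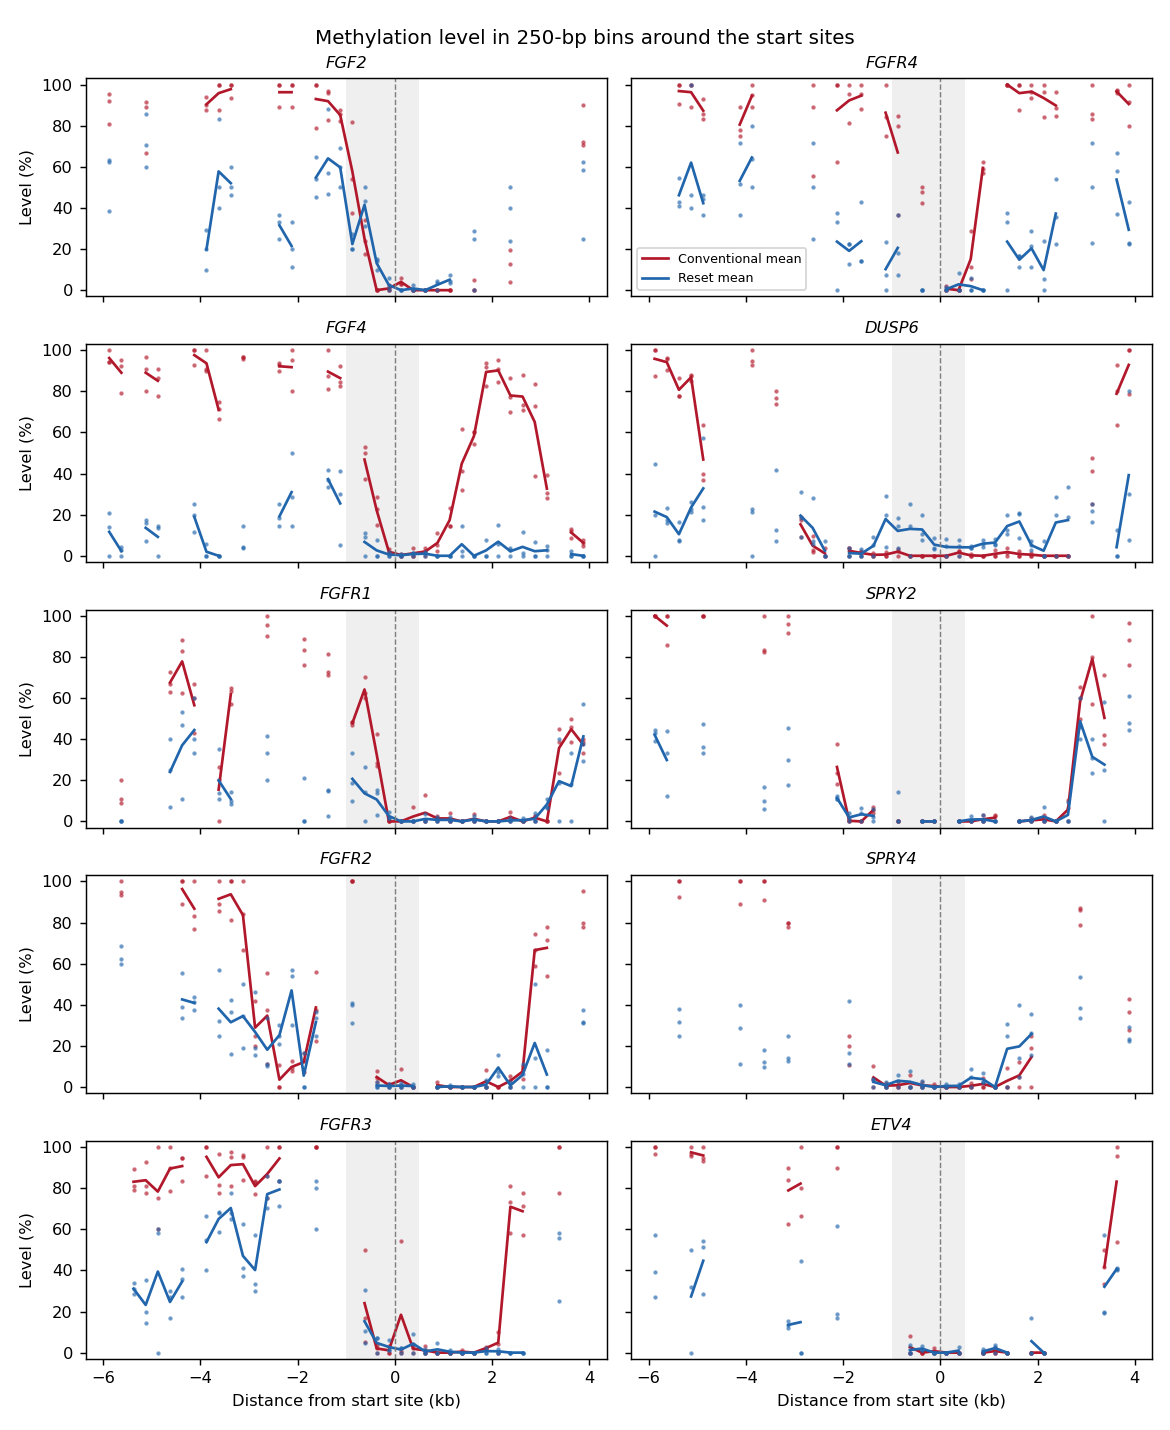
Methylation level (y axis, %) in 250-bp bins from 6 kb upstream to 4 kb downstream of each start site (x axis, kb), for Conventional (red) and Reset (blue) libraries. Dots are libraries, lines group means, and bins with under 5 calls in any library are left out; the grey band is the promoter window. In the bin that begins at the start, mean levels are under 5% in both groups except at FGFR3, where 1 Conventional library stands apart. FGF4 stays under 10% in Reset cells across its body, and DUSP6 lies above the Conventional line around its start.

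Upstream of the starts most intervals were lower in Reset cells. Of the 100 upstream intervals of 1 kb, 92 were tested, and 78 were lower, 3 higher and 11 without a call. The 10 intervals numbered -1 lie within the promoter windows and share their calls, and 3 of them were lower, 1 higher and 6 without a call. All 10 upstream intervals of ETV4 overlap the coding gene DHX8, those of SPRY4 the lncRNA gene SPRY4-AS1, and the 5 farthest of FGFR4 the coding gene ZNF346. The annotated ETV4 gene begins 33280 bp upstream of the canonical start, so its 10 intervals also lie within ETV4 itself. The annotated SPRY4 gene begins 1434 bp upstream, so its interval -1 and part of interval -2 lie within SPRY4. Intervals -2 to -10 of DUSP6 overlap the lncRNA gene ENSG00000286608, and its interval -1 overlaps ENSG00000274021. Over all genes 93.4% of 169736 such intervals were lower and 1.49% higher. Of the intervals under 25% in Conventional cells, 1 of 13 were lower and 3 higher for the members, against 40.1% and 15.2% over all genes. This stratum too was chosen after the values were seen. Its member intervals include neighbours of the same gene, and those called higher were DUSP6 intervals -1 and -2 and FGFR2 interval -3. The median difference was -47.3 percentage points for the members and -51.8 for all genes. Among intervals at 50% or more in Conventional cells, the median level in Reset cells was 34.4% over 70 member intervals and 34.1% over all.

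The members differed among themselves in how much methylation their upstream intervals kept. Of such intervals at 50% or more in Conventional cells, the median in Reset cells was 53.6% for FGF2 (7 intervals), 47.8% for FGFR3 (9) and 44.7% for FGFR4 (9). It was 36.2% for SPRY2, 35.9% for FGFR1, 35.3% for FGFR2, 29.1% for ETV4 and 27.8% for SPRY4. At the low end stood DUSP6 with 18.2% (4 intervals) and FGF4 with 17% (8). Within 500 kb on each side of the gene, the level over all CpGs in Reset cells was 23.9% ± 0.62 around DUSP6 and 37.3% ± 0.102 around FGF4 (SD, n = 3).

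FGF4 had 3 upstream intervals that were over 80% in Conventional and under 10% in Reset cells. Over all genes, 5.86% of the upstream intervals at 50% or more in Conventional cells were under 10% in Reset cells, and for the members 4 of 70. Interval -4 of FGF4 (chr11:69593110-69594109) stood at 90.6, 89.5 and 90.9% in the Conventional and 3.45, 6.41 and 1.85% in the Reset libraries (adjusted p = 9.5e-17). Interval -6 (chr11:69595110-69596109) stood at 89.3, 92.6 and 92.9% in the Conventional and 2.53, 9.26 and 9.38% in the Reset libraries (adjusted p = 1.42e-18), and interval -5, between them, at 84.6, 92.2 and 94.3% in the Conventional and 15, 4.44 and 10.2% in the Reset libraries. Farther out the level in Reset cells was higher, with interval -9 at 48.2, 43.2 and 49.3% and interval -10 at 43.6, 45.3 and 42.7%.

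The largest fall of any member interval was in interval -8 of FGFR2 (chr10:123364959-123365958), at 90, 100 and 100% in the Conventional and 0, 9.09 and 5.0% in the Reset libraries (adjusted p = 9.15e-11). It holds 5 CpGs, none of them in its middle 300 bases, and 14 to 22 calls per library. The neighbouring intervals -9 and -10 also fell, to 15% ± 4.27 and 15.4% ± 7.9. Interval -3 of FGFR2 went the other way, at 15.5, 16.3 and 16.7% in the Conventional and 22.6, 25 and 34.2% in the Reset libraries (adjusted p = 0.0205). That call was lost without Conventional replicate 1 (adjusted p = 0.0566) or Reset replicate 3 (adjusted p = 0.15). It was also lost when libraries of the same number were paired in a replicate block.

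The centres of 2 intervals are shown because their levels went in opposite directions. They are FGF4 interval -4 (chr11:69593460-69593759, - strand, intergenic, 5 CpGs) and FGF2 body interval 2 (chr4:123749837-123750136, + strand, an intron, 2 CpGs). The first was added after the values were seen.
FGF4 interval -4: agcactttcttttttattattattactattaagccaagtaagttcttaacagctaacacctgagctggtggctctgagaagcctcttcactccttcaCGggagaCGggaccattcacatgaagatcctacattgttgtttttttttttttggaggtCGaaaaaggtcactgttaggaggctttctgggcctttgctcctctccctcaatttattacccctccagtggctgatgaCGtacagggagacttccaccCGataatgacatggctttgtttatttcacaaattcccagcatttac
FGF2 body interval 2: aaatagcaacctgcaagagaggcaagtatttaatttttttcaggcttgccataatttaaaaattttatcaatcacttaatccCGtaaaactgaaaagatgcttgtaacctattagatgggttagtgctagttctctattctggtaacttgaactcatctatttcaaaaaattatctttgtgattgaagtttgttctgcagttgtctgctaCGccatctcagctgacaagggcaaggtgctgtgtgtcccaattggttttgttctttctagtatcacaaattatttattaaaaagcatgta
The printed FGF4 stretch stood at 78.6, 69.2 and 66.7% in the Conventional and 5.56, 0 and 0% in the Reset libraries, on 6 to 25 calls. In the FGF2 stretch the order was the reverse, with 7.14, 0 and 0% in the Conventional and 87.5, 33.3 and 53.8% in the Reset libraries, on 3 to 15 calls.

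Over the gene bodies all 10 members were lower in Reset cells, as were 97.8% of 19148 bodies of all genes, with 1.15% higher. The fall differed in size. FGFR2, the longest of the 10, stood at 85.7, 85.2 and 85.3% in the Conventional and 41.1, 40.8 and 40.3% in the Reset libraries and fell by 44.7 percentage points (adjusted p = 2.86e-27). FGFR4 had the highest mean body level in both groups, 89.8% ± 2.44 and 41% ± 4.41 (SD, n = 3). FGF2 went from 82.5% ± 2.33 to 40.8% ± 3.25, FGFR1 from 72.8% ± 1.12 to 36.1% ± 1.06 and FGFR3 from 72.4% ± 4.44 to 29.4% ± 3.37. In SPRY4 the body fell from 64.9% ± 3.55 to 23.7% ± 1.21, in ETV4 from 70.02% ± 4.15 to 22.9% ± 1.78 and in SPRY2 from 25.3% ± 2.73 to 12.2% ± 1.69. In Reset cells FGFR4, FGF2 and FGFR2 stood highest and their libraries overlapped, as did those of FGFR4 with FGFR1, of ETV4 with SPRY4 and of SPRY2 with DUSP6. FGF4 stood lowest, under every library of the other genes.

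FGF4 lost nearly all of its body methylation. Its libraries stood at 42.9, 30.6 and 34% in the Conventional and 1.77, 1.57 and 3.99% in the Reset libraries, so that 6.82% of the Conventional level remained (adjusted p = 5.95e-13). Across the other 9 bodies 32.7% to 73% remained. All 4 body intervals of FGF4 were under 5% in Reset cells, and interval 2 fell most, at 82.8, 80.8 and 83.9% in the Conventional and 5.26, 1.43 and 5.56% in the Reset libraries (adjusted p = 7.95e-51). Only 1 of the 4 was at 50% or more in Conventional cells. Over all genes, 6.47% of the body intervals at that level were under 10% in Reset cells, and for the members 4 of 261. The DUSP6 body, at the other end, stood at 17, 11 and 14.6% in the Conventional and 11.2, 10.7 and 9.36% in the Reset libraries and fell by 3.84 percentage points (adjusted p = 0.0368). The groups overlapped, and the call was lost without Conventional replicate 1 (adjusted p = 0.213), Conventional replicate 3 (0.0601), Reset replicate 2 (0.0719) or Reset replicate 3 (0.113). The small net fall of the DUSP6 body sums the rises near its start and the falls toward its end.

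**Figure D3:**
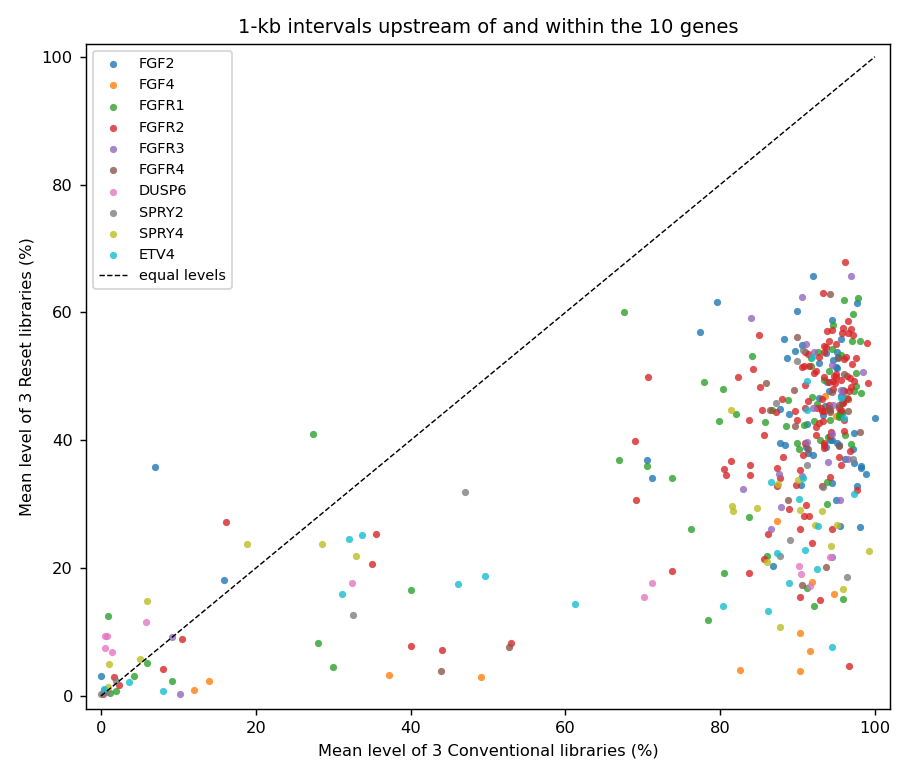
Mean level of the 3 Reset libraries (y axis, %) against that of the 3 Conventional libraries (x axis, %) for every tested 1-kb interval upstream of or within the 10 genes, coloured by gene; the dashed line marks equal levels. Most points lie far under the line, several FGF4 points (orange) lie near the bottom while those of its farthest intervals do not, and the point well above the line at a Conventional level of 7.01% is FGF2 body interval 2.

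Of the 320 intervals of 1 kb within the bodies, 297 were tested, of which 271 were lower, 7 higher and 19 without a call. Over all genes 98.6% of 937210 were lower and 0.378% higher. Among intervals under 25% in Conventional cells, 3 of 24 member intervals were lower and 6 higher, against 34.1% and 24.8% over all genes. Here too the stratum was chosen after the values were seen. Intervals at 50% or more in Conventional cells had a median Reset level of 44.3% for the 261 member intervals and 34.7% for all genes (quartiles 23.2% and 44%). FGFR2 gave 112 of the member intervals, FGF2 50 and FGFR1 49, so this median mainly describes these genes, with medians of 45.7%, 41.9% and 44.5%. The medians for ETV4 and SPRY4 were 25.4% (12 intervals) and 29% (9).

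Within long bodies the fall was uneven. FGFR1 body interval 22, in an intron, stood at 100, 94.4 and 93% in the Conventional and 23.4, 11.9 and 10.3% in the Reset libraries (adjusted p = 8.53e-36). In contrast, FGFR1 body interval 36 kept most of its methylation, with 71, 59.1 and 72.7% in the Conventional and 65.6, 60.7 and 53.8% in the Reset libraries and no call (adjusted p = 0.0768). It was chosen after its values were seen.

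The rises lay near starts and in introns, and 6 of the 7 in intervals under 10% in Conventional cells. FGF2 body interval 2 (chr4:123749487-123750486, in an intron) had the largest, at 12.5, 1.85 and 6.67% in the Conventional and 31, 40.5 and 35.9% in the Reset libraries, a rise of 28.8 percentage points (adjusted p = 2.94e-08). Its groups did not overlap, and Conventional replicate 1 was the highest of its group. The interval before it rose by 3.07 points, from no methylated call in 528 Conventional calls, which allows up to 0.568%, to 4.68, 1.64 and 2.88% in the Reset libraries. FGFR1 body interval 28, in an intron, stood at 1.74, 0 and 0.909% in the Conventional and 11.6, 17.3 and 8.77% in the Reset libraries (adjusted p = 1.88e-07). FGFR1 body interval 29, next to it, rose by 13.5 points with overlapping groups (adjusted p = 0.0286), and SPRY4 body interval 1 by 3.93 points (adjusted p = 0.0109). Together with both DUSP6 intervals these are all 7 body intervals that were higher. With limma on the percent level only FGF2 body interval 2 and FGFR1 body interval 28 kept that call.

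The call depth around each gene differed little between groups. Calls per CpG were taken over the gene and 500 kb on each side and divided by each library's autosomal mean. Their ratio of Reset to Conventional cells ran from 0.921 for FGF2 to 1.15 for FGFR3. The part of these ratios in the levels was not tested.

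Other genes of the pathway were taken from lists set by function, 82 genes in all, of which 80 promoters were tested. Of these, 40 were lower and 3 higher, with a median difference of -3.05 percentage points. Over all promoters 67.4% were lower and 3.98% higher. In the group of RAS, RAF, MEK and ERK kinases, the core of the cascade with the RSK kinases and the scaffold KSR1, 13 of 14 promoters were lower and none higher, with a median difference of -10.4. RPS6KA3, an X-linked RSK kinase, fell from 55.1% ± 9.1 to 1.4% ± 0.0223 and ARAF, an X-linked RAF kinase, from 37.9% ± 4.31 to 1.04% ± 0.534. The paper reports that CpG-rich stretches of the X chromosome with intermediate methylation became fewer in Reset cells. The part of this in the falls of X-linked promoters, here and below, was not tested. Of the adaptors, which couple receptors to RAS, 6 of 10 were lower, with FRS2 falling from 24.7% ± 9.41 to 3.28% ± 0.886 and the RAS exchange factor SOS1 from 13.9% ± 2.34 to 0.563% ± 0.488. In the window of 500 bp on each side FRS2 fell by 12 points and SOS1 fell by 2.39 points.

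Of the co-receptors and binding proteins, 4 of 8 were lower and 1 higher, against 67.4% and 3.98% of all promoters. KLB, the co-receptor of FGF19 and FGF21, fell from 86.7% ± 2.87 to 28.4% ± 1.94, and FGFBP2 from 78.5% ± 4.44 to 23.7% ± 4.49. GPC4, an X-linked glypican, was higher, at 0.317, 0.581 and 0% in the Conventional and 3.92, 1.71 and 9.13% in the Reset libraries (adjusted p = 0.00237). Of the other ligands, 6 of 14 were lower and 2 higher. FGF21 fell from 92% ± 5.24 to 41.8% ± 2.1 and FGF23 from 81.8% ± 9.58 to 31.9% ± 5.92, both endocrine ligands with methylated promoters in Conventional cells. FGF10, a ligand of mesenchyme, rose from 0, 2.31 and 0.885% to 17.7, 23.9 and 26.7% (adjusted p = 7.79e-06), and FGF5 from 1.9, 0.538 and 2.98% to 16.1, 8.7 and 11.1% (adjusted p = 0.000194). GPC4, FGF10 and FGF5 are named because they are all 3 that were called higher.

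The groups nearest in function to DUSP6, SPRY2, SPRY4 and ETV4 are the feedback inhibitors and the transcription targets. Of the other feedback inhibitors, 5 of 14 promoters were lower and none higher, and of the transcription targets and effectors 6 of 20 and none. The median differences were -1.48 and -0.635 percentage points, and the median levels in Conventional cells 5.26% and 2.2%. DUSP9, an X-linked ERK phosphatase, fell from 54.9% ± 3.92 to 8.58% ± 3.01 and IL17RD, an FGF receptor antagonist, from 26.9% ± 6.39 to 2.94% ± 1.14. Among the targets, ELK1, an X-linked ETS factor, fell from 35.3% ± 8.85 to 2.27% ± 1.38 and IER3, an immediate early gene, from 31.1% ± 3.31 to 8.76% ± 2.45. In the window of 500 bp on each side IL17RD fell by 10.9 points and IER3 fell by 5.05 points. No list was tested as a set. These shares are to be read against the 67.4% and 50.7% of promoters that were lower over all genes and over those under 25%. For higher promoters the same shares were 3.98% and 6.12%.

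**Figure D4:**
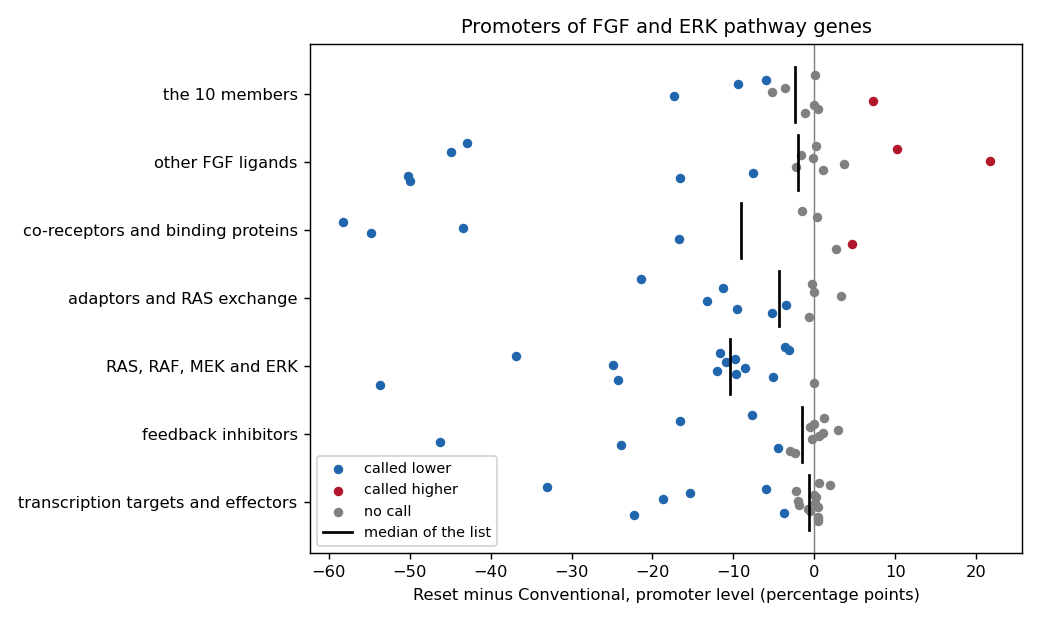
Difference in promoter level, Reset minus Conventional (x axis, percentage points), for each tested gene of the members and of 6 other pathway lists (y axis), coloured by call, with the list median as a black line. Most transcription targets sit near 0, all but 1 of the RAS, RAF, MEK and ERK promoters are called lower, and the higher calls are DUSP6, FGF5, FGF10 and GPC4.

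For the called promoters the most alike gene was sought over 24 values, the group means of promoter, 10 upstream intervals and body, among 8635 genes with at least 10 calls per library in each. For FGFR4 it was STX12 (root mean square difference 4.99 percentage points, median over all genes 18.4) and for FGFR1 FBXW5 (10.8, median 24.2). FGF4 and DUSP6 lacked calls in some intervals and have no match. In the 300-bp promoters of RefSeq (GRCh38.p14), matched for 7 of the 10 members, both strands were searched for 4 motifs. The ETS core CCGGAA was found in 1 member, SPRY2, and in 17.2% of 35116 promoters. The GC box GGGCGG was found in 6 and in 45%. The CRE motif TGACGTCA and the E-box CACGTG, found in 1.85% and 7.26% of promoters, were in no member's window. Such a match describes letters in a window and marks no bound site.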

How the data were processed

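Whole-genome bisulfite sequencing gave 3 Conventional and 3 Reset libraries of H9 cells, each group taken from the condition given in the labels. Per the labels, DNA was sonicated, ligated to methylated adapters, converted with bisulfite and amplified by PCR. The authors trimmed reads with Trim Galore and mapped them to GRCh37 with Bismark and Bowtie2. The submitters' processing notes give Bismark 0.9.0 and the study's methods another version. Removal of PCR duplicates is not given in the sources used here, and PCR copies are not independent molecules, so calls and limits cover counting error only. Neighbouring CpGs on a read also share a molecule, so every limit printed for windows without a methylated call is too low. The share of reads from mouse feeder cells was not measured. The deposited files give, per cytosine position, the methylated and unmethylated counts and the percent methylated; only the counts were used, and both strands of a CpG were summed. Positions are printed 1-based.

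Levels were computed for the canonical transcripts of GENCODE lifted to GRCh37, for all 19812 protein-coding genes. Groups were compared for each window by a logistic model of the counts with quasi-binomial dispersion (F test, two-sided), the dispersion being moderated with limma 3.58.1 (R 4.3.3) and kept at 1 or above. Windows needed 10 calls in every library, and p-values were adjusted by Benjamini-Hochberg over all windows of a kind (promoters, upstream intervals, bodies, body intervals). Since most intervals and bodies were called, the adjustment changed p-values near the threshold little, for FGFR2 interval -3 from 0.0192 to 0.0205. It holds the error rate over all calls of a kind, and not over the few higher calls alone. An exact permutation test of 3 against 3 libraries cannot go below p = 0.1 and was not used. A difference is the mean of the Reset libraries minus that of the Conventional libraries. Other steps used Python 3.11.15, numpy 2.4.6, pandas 2.3.3 and scipy 1.17.1. The test was tried on simulated promoters of which few were changed, while most promoters were called here. Intervals and bodies were not simulated.

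The members and gene lists were chosen with earlier results of these data known. All 10 members are named, with the 2 promoters of each other list that differed most without overlap, and the 5 largest falls and 5 largest rises among the members' called 1-kb intervals without overlap, of which 1 is not reported here. Other genes, intervals and sequences were named after their values were seen, as the text says. Alternatives were other call minimums, promoter windows, tests, a replicate block and leaving out each library.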

Additional observations from a re-analysis of the deposited data

How the results depend on the processing

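Of 120 recomputed counts, 111 lay within 1.5 times the reported count, and no difference that was called turned its direction under any setting tried. The count of lower member promoters went from 3 to 5 with Fisher's exact test on pooled calls, which ignores the spread between libraries, and to 6 with a promoter from 2000 bp upstream, where 72.5% and 88.6% of all promoters were lower. Requiring 30 calls left 42 lower upstream intervals of 54 tested and 150 lower body intervals of 171, against 87.4% and 96.8% over all genes. With limma on the percent level 1 upstream and 2 body intervals were higher, against 0.949% and 0.238% over all genes. With a promoter of 500 bp on each side, 2 member promoters (FGF4 and FGFR4) were lower and 1 (DUSP6) higher. In that window 23 of the other pathway promoters were lower and 5 higher, against 39.6% and 4.4% of all promoters. Leaving out each library in turn gave 3 to 5 lower and 1 higher member promoters (5 without Conventional replicate 3), 77 to 81 lower and 2 to 4 higher upstream intervals, 9 to 10 lower bodies, and 268 to 273 lower and 5 to 7 higher body intervals. Over all genes the same settings gave 63.4% to 65.5% lower and 3.36% to 3.71% higher promoters, 92.8% to 93% and 1.37% to 1.41% for upstream intervals, 97.6% to 97.7% lower bodies, and 98.4% and 0.339% to 0.352% for body intervals. For the other pathway promoters it gave 35 to 41 lower and 3 to 4 higher. The DUSP6 body call was also lost with limma (adjusted p = 0.0575) and over the whole annotated gene (adjusted p = 0.165). The DUSP6 promoter was higher, and those of FGF4 and FGFR4 lower, in all 16 settings in which each was recomputed. The cause of these changes was not tested.

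The labels number the replicates alike in both groups, but nothing in them ties libraries of the same number. Over 19293 promoters the deviations of same-numbered libraries from their group means correlated at 0.00703, 0.0114 and 0.00947. Each library correlated best with its own number, but Conventional replicate 1 had 0.00695 with Reset replicate 3. Correlations this close to none cannot decide whether libraries were paired. The chi-square of promoter call depth per degree of freedom was lowest with Reset replicate 1 for every Conventional library (7.47, 7.56 and 7.62). With the replicate block 4 member promoters were lower and 1 higher, FGFR2 being added (adjusted p = 0.0256), 78 upstream intervals were lower and 2 higher, without FGFR2 interval -3 (adjusted p = 0.0517), 10 bodies were lower, and 265 body intervals were lower and 6 higher. Of the other pathway promoters 37 were lower and 3 higher. With the block 64.9% and 3.45% of all promoters were lower and higher, 92.4% and 1.27% of upstream intervals, 97.8% and 1.14% of bodies, and 98.1% and 0.302% of body intervals.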
